A study of Homo sapiens with 3 samples.

Results

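The regions described here were 765 MAX peaks at promoters with genes starting close together on both strands, out of 13650 MAX peaks mapped in human breast cancer cells. A peak was counted as a member when it met 4 conditions. It shared no base with a BMAL1 peak, it came within 300 bp of the transcription start site (TSS) of a protein-coding gene, it held no canonical E-box (CACGTG) within 100 bp of its summit, and protein-coding genes started on both strands within 1 kb of that summit. Of the 13650 MAX peaks, 13013 were free of BMAL1, 5848 of these lay at a coding TSS, 4796 of those had no CACGTG at the summit, and 765 of the last set had TSSs on both strands. The members were therefore selected on the peak lists, the annotation and 1 motif, so that the lack of BMAL1 and of CACGTG at their summits is part of the selection and not a finding.

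The peaks came from chromatin immunoprecipitation sequencing (ChIP-seq) of MDA-MB-231, an adherent breast adenocarcinoma line established from a pleural effusion. The labels name no engineered allele and no agent for any of the libraries other than the formaldehyde used for fixation. One library was made with an antibody to MAX, 1 with an antibody to BMAL1, and 1 from input chromatin that served both as control. After the removal of duplicates the MAX library held 11545865 tags, the BMAL1 library 13866783 and the input 29308882. With 1 library per antibody there was no replicate, so the intervals given here cover counting error only and no difference between sets of peaks was tested.

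MAX is the obligate partner of MYC and of the MXD and MNT repressors, and these dimers recognise the E-box. BMAL1, which dimerises with CLOCK in the circadian oscillator, recognises the same hexamer. MAX dimers also bind related hexamers that keep part of the E-box, called noncanonical E-boxes. Divergent promoters, in which 2 genes start back to back on opposite strands, are a common arrangement in the human genome, are usually CpG islands without a TATA box, and often serve housekeeping genes of DNA repair, replication, mitochondria and protein synthesis.

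The DNA between the TSSs is shown only for members that had an exon-free stretch of at least 80 bp between their TSSs at the summit. CHP1/EXD1 was the strongest of these. The strongest remaining ones with each of 3 noncanonical E-boxes were PCNT/C21orf58 for CACGCG, TMBIM6/FMNL3 for CACGAG and ATM/NPAT for CATGCG. NKTR/SEC22C was the strongest of those with such a stretch and none of the motifs searched. The sequences show how different the summits of these promoters could be. Such a stretch existed in 199 members. The gene on the plus strand is named first, the sequences are the plus strand of hg19 from 5′ to 3′, and capitals mark noncanonical E-boxes in either orientation.
CHP1/EXD1: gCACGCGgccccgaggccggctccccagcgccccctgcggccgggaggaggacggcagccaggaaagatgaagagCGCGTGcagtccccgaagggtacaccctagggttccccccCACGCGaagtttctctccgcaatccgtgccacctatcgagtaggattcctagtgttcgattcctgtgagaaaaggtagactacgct
PCNT/C21orf58: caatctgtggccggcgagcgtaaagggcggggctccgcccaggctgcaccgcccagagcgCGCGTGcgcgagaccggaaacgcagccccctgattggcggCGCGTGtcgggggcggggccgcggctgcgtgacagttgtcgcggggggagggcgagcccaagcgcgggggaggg
TMBIM6/FMNL3: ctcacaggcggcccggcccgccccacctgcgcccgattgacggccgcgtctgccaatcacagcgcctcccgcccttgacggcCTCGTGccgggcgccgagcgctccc
ATM/NPAT: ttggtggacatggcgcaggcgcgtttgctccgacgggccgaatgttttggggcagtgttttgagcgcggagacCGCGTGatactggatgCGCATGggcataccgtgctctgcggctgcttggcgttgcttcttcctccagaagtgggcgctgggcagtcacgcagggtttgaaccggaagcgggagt
NKTR/SEC22C: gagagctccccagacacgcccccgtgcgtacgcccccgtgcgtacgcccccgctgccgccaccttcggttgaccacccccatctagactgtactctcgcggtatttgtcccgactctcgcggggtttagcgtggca
The CHP1/EXD1 stretch (chr15:41522976-41523176) held 3 CACGCG elements, read as CACGCG or CGCGTG. It lay between the starts of CHP1, a calcium-binding cofactor of sodium/proton exchangers, and EXD1, which acts in the piRNA pathway, and MAX fold enrichment over input was 31.2 there. PCNT encodes pericentrin, a scaffold of the centrosome, and the 174 bp beside it (chr21:47743896-47744069) held 2 elements at a fold enrichment of 23.7. The 107 bp of TMBIM6/FMNL3 (chr12:50101401-50101507) held 1, a CACGAG read as CTCGTG, at 20.3. ATM, the kinase that signals DNA double-strand breaks, and NPAT, the coactivator of histone genes, shared 187 bp (chr11:108093607-108093793) with 1 CACGCG and 1 CATGCG, and the fold enrichment was 18.6. The 136 bp of NKTR/SEC22C (chr3:42642017-42642152) held none of the motifs searched and still reached 15.8. Stronger members that were not printed also held none of them at the summit, such as RRP1B/HSF2BP at 24.6.

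MAX occupancy of the members was close to that of the other promoters without an E-box. Fold enrichment, which divides the MAX pileup at the summit by a background, had a median of 10.2 in the members (interquartile range 8.04 to 13.1, range 4.02 to 48.1). The background was at least 1.28 tags at every MAX peak. Many members on different chromosomes shared this lowest value, CHP1/EXD1 and AP4M1/MCM7 among them, so it was not a local measure there. At PRPF38A/ORC1 a pileup of 13 tags gave a fold enrichment of 10.1. The 4031 MAX promoters that met the same conditions but had coding TSSs on 1 strand only, called one-strand promoters from here on, had a median of 9.95 (8.04 to 12.3). The ratio of the 2 medians was 0.03 on the log2 scale. The 1052 MAX-only promoters with CACGTG at the summit had a median of 12.4, which placed the members 0.29 lower on the log2 scale (log2 ratio -0.29). The 260 promoters shared with BMAL1, which the selection had set aside, had a median of 16.5.

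Stronger peaks were counted at 2 levels. A fold enrichment of 10 or more was reached by 420 of 765 members (54.9%, Wilson 95% interval 51.4 to 58.4), against 48% of all MAX peaks. It was reached by 49.8% of the one-strand promoters (48.2 to 51.3) and by 74.4% of those with CACGTG at the summit. A fold enrichment of 20 or more was reached by 24 members (3.14%, 2.12 to 4.63), against 3.89% of all MAX peaks, 2.63% of one-strand promoters and 15.4% of promoters with CACGTG at the summit. At the higher level the share of the members was near the background of the whole list, and that of promoters with CACGTG was several times higher. Median pileup was 19 tags in members and 18 in one-strand promoters, and median peak length was 503 and 475 bp. The plot of fold enrichment by set of promoters shows this order.

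**Figure D1:**
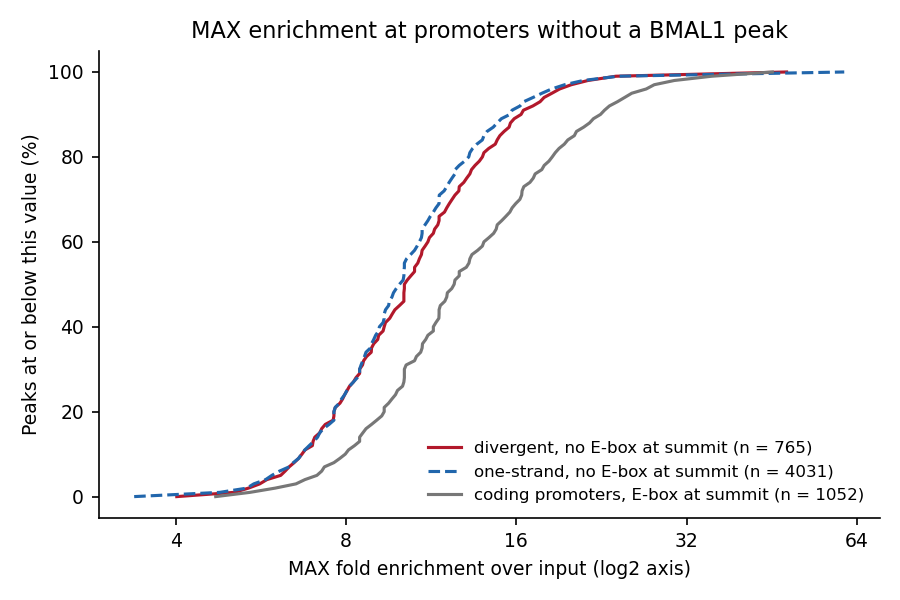
Cumulative share of promoters (percent, y axis) against MAX fold enrichment over input (x axis, log scale) for members, one-strand promoters and MAX-only promoters with an E-box at the summit. The curve of the members (median 10.2) runs beside that of one-strand promoters (9.95), and the curve of promoters with the E-box (12.4) lies to the right of both.

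The strongest member lay at the pair of CCNE2, the cyclin E2 gene of S-phase entry, and NDUFAF6, an assembly factor of respiratory complex I (chr8:95907713-95908427). Its summit was 12 bp inside NDUFAF6. Its fold enrichment was 48.1 with a pileup of 100 tags (exact Poisson 95% interval 81.4 to 122). It was followed by ZNF473/VRK3 at 33.99 (chr19:50528536-50529674), a zinc finger gene beside a kinase gene, and by RAD9B/VPS29 at 33.0 (chr12:110939766-110940386), where VPS29 encodes a retromer subunit. CHP1/EXD1, shown above, came next at 31.2. DGLUCY/RPS6KA5 (chr14:91526788-91527767), which holds the gene of the stress kinase MSK1, had 30.9. AP4M1/MCM7 (chr7:99697744-99699357), with a subunit of the replicative helicase, had 27.3. At the other end were MFSD11/SRSF2 (chr17:74733300-74734222) at 4.02, beside a splicing factor gene, and SFXN3/PDZD7 (chr10:102790732-102791037) at 4.06. The pileup at MFSD11/SRSF2 was 19 tags (11.4 to 29.7), the median of all members, while its background was 4.73 tags, against a median of 1.78.

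Members just inside and just outside each limit had ordinary values. The member with the nearest CACGTG, OGFOD2/ABCB9 (chr12:123459677-123459989), had the far end of that hexamer 101 bp from its summit and a fold enrichment of 8.12, and the nearest excluded peak (chr1:15852923-15853422), at 100 bp, had 14.0. The closest BMAL1 peak to any member lay 496 bp from DUSP28/ANKMY1 (chr2:241500332-241500706, 8.63), and the excluded peak with the smallest overlap (chr12:9102521-9103046) shared 59 bp with a BMAL1 peak and had 7.66. The median distance of members to a BMAL1 peak was 670412 bp. For the TSS limit, TSC2/NTHL1 (chr16:2097151-2097479) stood at 300 bp with 13.3, and a peak at 306 bp (chr14:94546926-94547242) was left out with 8.86. For the second strand, RMI1/HNRNPK (chr9:86594399-86596259) had its farther TSS 996 bp away with 14.9, and a peak with 1002 bp (chr8:57124549-57125022) was left out with 8.62. In all, 12 peaks missed membership only through a BMAL1 peak, 144 only through CACGTG at the summit, and 26 only through the distance of the peak to a TSS.

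Not all members were divergent in the strict sense. The nearest TSSs of the 2 strands pointed away from each other in 659 members (86.1%, 83.5 to 88.4). In the other 106 (13.9%) they pointed towards each other, so that the 5′ ends of these 2 transcripts overlapped, as at HSPE1/HSPD1. This class rests on the transcript starts nearest the summit, and other starts of the same genes can be head to head. FBXO36/TRIP12, for example, was head to head at 1 peak (spacing 293 bp) and overlapping at another (-733 bp). In the 659 head-to-head members the TSSs lay a median of 186 bp apart (interquartile range 100.5 to 355, range 2 to 1268), and 348 of them (52.8%) were under 200 bp apart. Canonical transcripts alone placed TSSs on both strands in 535 members (69.9%), and the rest rested on an alternative start of at least 1 gene. More than 2 coding genes were in reach in 37 members.

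The position of the MAX summits relative to the start sites was described next. The selection required a TSS within 300 bp of the peak and starts on both strands within 1 kb of the summit. Summits near start sites therefore follow in part from it. In a head-to-head pair a summit lies either between the TSSs or inside 1 of the genes, so only the division over these places is given. The nearer TSS was a median of 49 bp from the summit (15 to 103), against 109 bp (39 to 230) in one-strand promoters and 130.5 bp in promoters with CACGTG at the summit. A summit with TSSs on both strands has more starts in reach, and what part of the shorter distance this accounts for was not tested. The farther TSS was a median of 223 bp away (121 to 423). Of the 659 head-to-head members, 343 had the summit between the TSSs (52.0%, 48.2 to 55.8), 154 had it inside the plus-strand gene (23.4%) and 162 inside the minus-strand gene (24.6%). These shares depended on the start sites used: over all members the summit lay between head-to-head TSSs in 44.8%, and in 22.3% with 1 TSS per gene, where the median spacing of all members fell from 156 to 67 bp. Plus and minus are labels of the genome assembly, so the near even split over the 2 strands is a description only. The same holds for the median signed distance from the midpoint of -3 bp. The median unsigned distance was 111 bp.

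**Figure D2:**
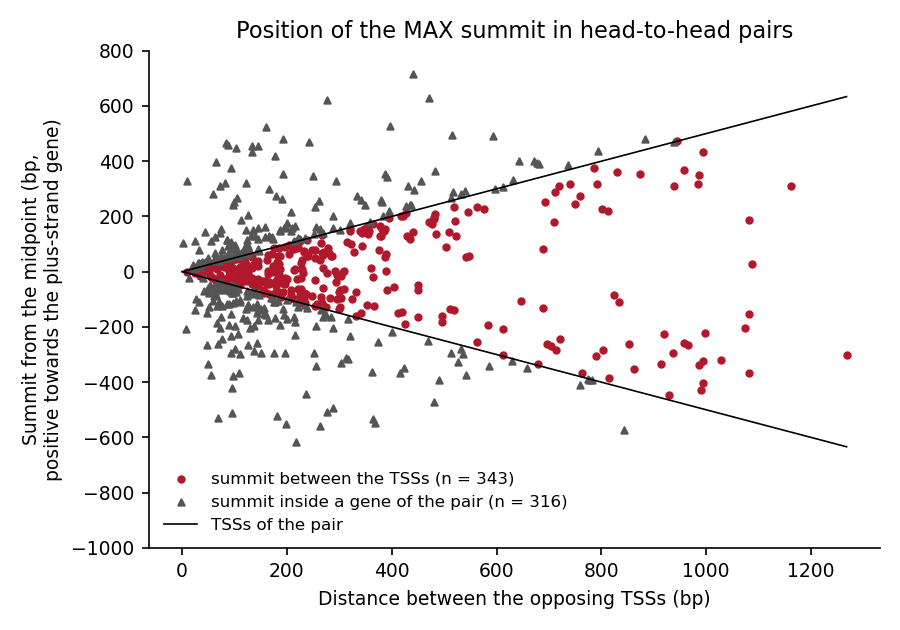
Distance of the MAX summit from the midpoint of the 2 TSSs (bp, y axis, positive towards the plus-strand gene) against the distance between the TSSs (bp, x axis) in the 659 head-to-head members. Circles inside the 2 lines, which mark the TSSs, are the 343 summits between the TSSs, and triangles are the 316 summits inside a gene, which lie on both sides in near equal number.

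MAX enrichment was level over the range of spacings. A wider gap leaves more room for a summit, so the shares between the TSSs in the next sentence follow in part from geometry. The summit lay between the TSSs in 35.8% of the 165 pairs up to 100 bp apart, 45.2% of the 186 at 101 to 200 bp, 63.4% of the 172 above that and up to 400 bp and 66.9% of the 136 farther apart. Median fold enrichment in these classes was 10.5, 10.3, 9.90 and 10.2, and it was 10.4 in the 106 members with overlapping 5′ ends. It was 10.6 with the summit between the TSSs and 10.1 with the summit inside a gene. With starts on both strands, a summit upstream of one gene is often inside the other, so the position relative to genes in the next sentences is given as a description of what was selected. Relative to the nearest TSS, the summit was downstream in 366 members (47.8%, 44.3 to 51.4), against 37.0% of one-strand promoters (35.5 to 38.5) and 38.7% of promoters with CACGTG. It fell in an untranslated exon in 46.1% of members, an intron in 22.1%, a coding exon in 10.8% and outside coding transcripts in 20.9%. The last share was 39.2% in one-strand promoters.

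The members were GC-rich. The summit with 100 bp to either side had a median GC content of 64.7% with 18 CpG dinucleotides, and the ratio of observed to expected CpG was 0.876. One-strand promoters had 65.7%, 17 and 0.832, and all MAX peaks had 60.2% and 10 CpG. The hexamer TATAAA of the TATA box was found in 0.784% of members, 2.2% of one-strand promoters, 3.1% of all MAX peaks and 16.01% of 1530 windows of the same length placed 2 kb to either side of the members. All motifs were searched on both strands, and a match is a description of the sequence only.

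Noncanonical E-boxes were present in 320 of the 765 members (41.8%, 38.4 to 45.4). The share was 44.5% in one-strand promoters (42.98 to 46.04), 34.4% in promoters with CACGTG, 43.1% in all MAX peaks and 18.9% in the windows 2 kb away, which were poorer in GC (median 43.8%). The hexamer CACGCG led, in 20.3% of members, 20.8% of one-strand promoters and 1.3% of flanking windows. CACGAG was in 11.1% of members and CATGCG in 8.9%, and CACGTT and CACATG were in 6.0% and 5.2%. CATGCG is contained in GCATGCGC, the motif of the nuclear respiratory factor NRF1, and 31 of the 68 members with CATGCG held that longer motif. CACATG was in 8.3% of one-strand promoters and 16.8% of all MAX peaks, and its interval in members (3.86 to 7.04) lay below that in one-strand promoters (7.47 to 9.18).

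The members with noncanonical E-boxes had somewhat higher MAX enrichment, as did the one-strand promoters. Median fold enrichment was 10.9 in the 320 members with such an element and 9.74 in the 445 without, and it was 10.3 and 9.59 in the same division of one-strand promoters. The 155 members with CACGCG had a median of 11.6. Ordered by fold enrichment and divided into 4 classes of 191 or 192, the members held CACGCG in 11.5% of the lowest class (7.69 to 16.7), 18.8% and 20.9% of the middle classes and 29.8% of the highest (23.8 to 36.7). Any noncanonical E-box was present in 29.7%, 39.8%, 45.5% and 52.4%. Other motifs also had higher shares in the highest class, with 14.6%, 18.3%, 18.8% and 20.9% for the ETS motif and 53.1%, 57.1%, 56.5% and 61.3% for the GC box of SP/KLF factors, which are described with the motifs of other factors. GC content moved little over the classes (63.7%, 65.2%, 64.7% and 65.2%), while peak length rose from a median of 410 to 664 bp and background fell from 2.36 to 1.58 tags. Their part in this trend was not tested. In 67 members (8.76%) CACGTG occurred elsewhere in the peak, and these peaks were longer (757 against 491.5 bp) and had a median fold enrichment of 12.1, against 10.2 in the other 698.

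**Figure D3:**
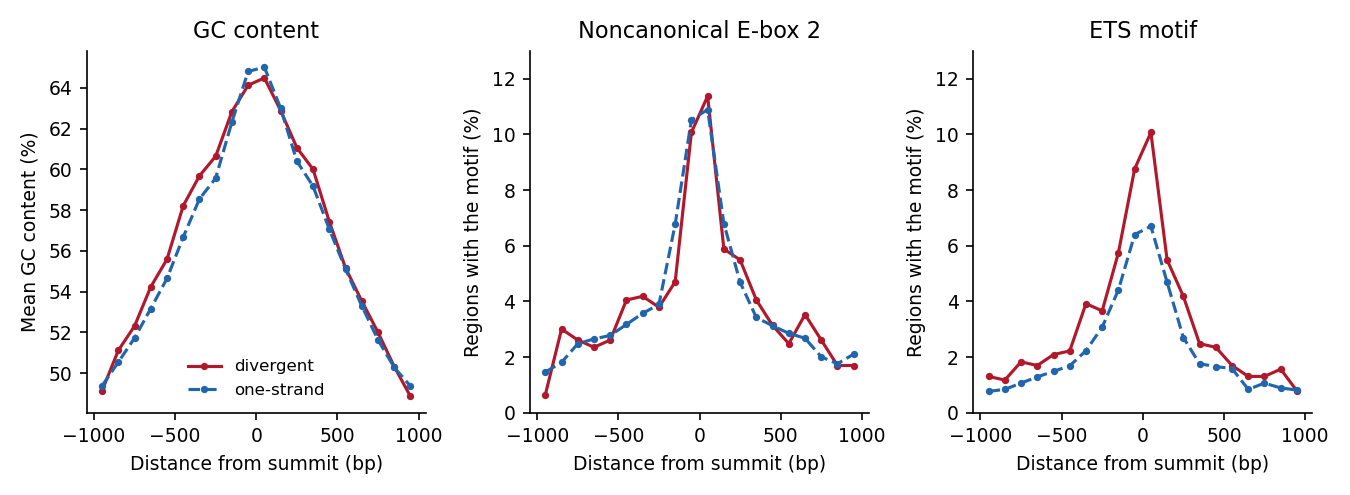
Share of promoters (percent, y axis) with a motif start in each 100-bp bin against the distance from the MAX summit (bp, x axis), for the CACGCG hexamer (marked noncanonical E-box 2) and the ETS motif, in members and one-strand promoters. In the members CACGCG reaches 10.1% and 11.4% in the 2 central bins and 4.71% and 5.88% in the bins next to them, and the ETS motif reaches 8.76% and 10.1% in the central bins, against 6.40% and 6.70% in one-strand promoters.

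Among motifs of other promoter-binding factors, that of ETS proteins differed most in share between members and one-strand promoters. CCGGAAG was found in 18.2% of members (15.6 to 21.1) and 12.9% of one-strand promoters (11.9 to 13.9), against 11.98% of promoters with CACGTG and 7.8% of all MAX peaks. The intervals of members and one-strand promoters did not overlap for this motif, nor for YY1, for the TATA box or for CACATG. The GC box GGGCGG of SP/KLF factors was in 57.0% and 54.3%, the CCAAT box of NF-Y in 27.7% and 24.2%, and TTCCCGC of E2F in 8.1% and 9.3%. AAGATGGCG of YY1 was in 3.8% (2.65 to 5.39) and 2.1% (1.69 to 2.57), ACTACAA of ZNF143 in 4.1% and 2.7%, and GCATGCGC of NRF1 in 4.1% and 3.9%. The AP-1 motif TGANTCA was in 2.7% of members and 16.2% of all MAX peaks. None of the motifs searched was present in 12.9% of members, NKTR/SEC22C among them, and in 13.1% of one-strand promoters. Median fold enrichment was 12.2 in the 62 members with the E2F motif and 8.63 in the 29 with the YY1 motif.

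The members were next set against all head-to-head pairs of the genome. For this count each gene had 1 start, the 5′ end of its gene record, and not every transcript start as in the selection of members, so the pairs differ from those named elsewhere. The annotation held 883 such pairs of protein-coding genes within 1 kb, and 405 of them carried a member (45.9%, 42.6 to 49.2). BMAL1 with MAX was found at 23, a MAX peak with CACGTG at 80, another MAX peak at 27 and no MAX peak at 348 (39.4%). Any MAX peak was present at 535 (60.6%, 57.3 to 63.8). Counted by gene, 987 of 1705 genes of such pairs had a MAX peak at the 5′ end (57.9%, 55.5 to 60.2), against 4384 of 18458 other coding genes (23.8%, 23.1 to 24.4). Both genes of a pair share the peak, so the genes are not independent and that interval is too narrow. A peak next to 2 starts also has 2 chances to be counted, and expression of these genes was not analysed here.

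Pairs with a member and pairs without MAX were alike in base composition and spacing. Median GC content within 100 bp of the midpoint of the pair was 65.2% and 65.4%, the number of CpG dinucleotides was 19 and 18, and the TSSs were 125 and 129.5 bp apart. Noncanonical E-boxes were found at the midpoint in 40.7% of the 405 pairs with a member and in 23.9% of the 348 without MAX. CACGCG was in 19.0% and 8.9%, and CATGCG in 13.8% and 6.3%, of which 39 of 56 and 18 of 22 windows held the longer NRF1 motif. CACATG was in 2.7% and 4.0%. Among motifs of other factors, ZNF143 was in 6.7% and 1.4% and NRF1 in 9.6% and 5.2%, and CREB/ATF (TGACGTCA) was in 2.0% and 5.2%. The GC box (63.5% and 64.1%), the CCAAT box (35.3% and 33.0%) and the ETS motif (24.9% and 21.3%) were at more similar shares. Pairs with CACGTG at the MAX summit were in neither set, but pairs without MAX were not filtered on this hexamer. CACGTG was within 100 bp of the midpoint in 22 of the 348 pairs without MAX (6.32%, 4.21 to 9.39). It was there in 7 of the 405 pairs with a member (1.73%, 0.84 to 3.52). The 2 sets are thus not matched for the canonical E-box, and this difference follows in part from the selection.

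**Figure D4:**
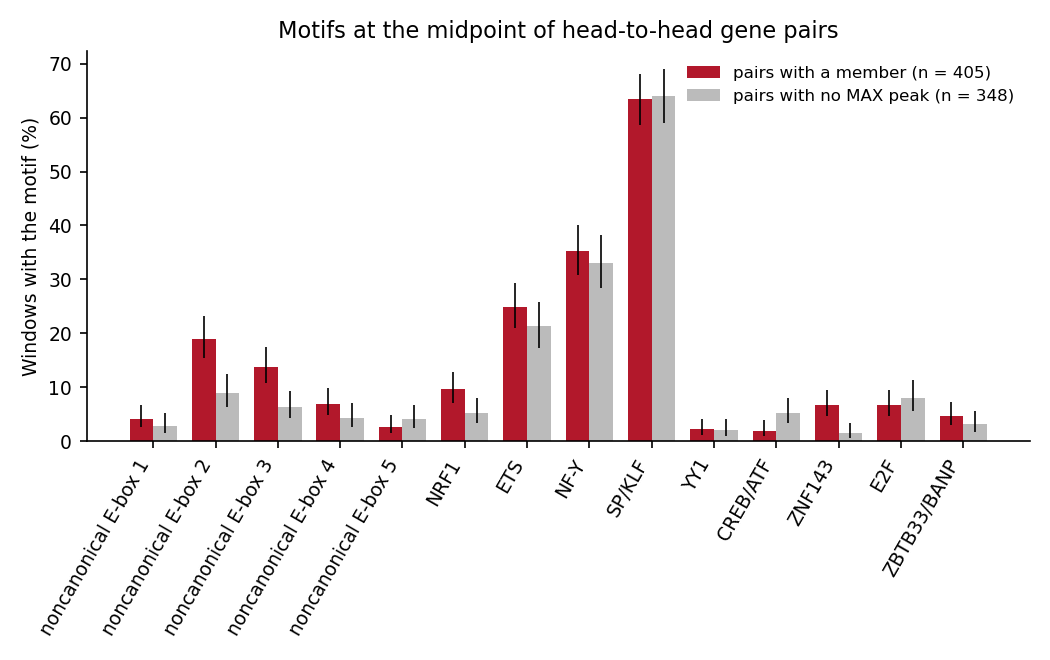
Share of windows with each motif (percent, y axis) within 100 bp of the midpoint of head-to-head gene pairs with a member (n = 405) or with no MAX peak (n = 348), with Wilson 95% intervals as error bars. Noncanonical E-box 1 is CACGTT, box 2 is CACGCG, box 3 is CATGCG, box 4 is CACGAG and box 5 is CACATG, and box 2 stands at 19.0% against 8.9%.

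The genes of the members were grouped by role. The 765 members named 1419 genes, and 19 lists of gene groups were compared by how many of their members stood at such a promoter and by the median fold enrichment there, to be read beside the median of 10.2 over all members. At 10 or more, the share of all members was 54.9%. Genes were counted at a member only where they were 1 of the 2 genes of its named pair, so a further gene in reach, such as RPL36A at RPL36A-HNRNPH2/BTK, was left out. Of all 20136 protein-coding genes, 1419 stood at a member (7.05%) and 8.46% lay in head-to-head pairs. The second share used 1 start per gene and head-to-head pairs only. Members used every coding transcript start and included overlapping 5′ ends, so the 2 shares are not like for like. Of the genes in such pairs, 772 were in a pair with a member, against 1419 genes at members by the wider rule. The lists differed in the second share, so their counts at members partly follow how often their genes have a divergent neighbour. The lists were built from gene symbols, and their medians rest on few peaks and were not tested.

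Genes of protein synthesis were present in each of its branches. Of 78 genes of the mitochondrial ribosome, 20 stood at a member (25.6%, with 21.8% of the list in head-to-head pairs), with a median of 8.98 and 7 of 20 peaks at 10 or more. MRPS11/MRPL46, where both genes encode mitochondrial ribosomal proteins, had 16.4, PTCD2/MRPS27 had 13.5, and MRPL18/TCP1 had 12.8. Of 86 genes of the cytosolic ribosome, 12 stood at a member (14.0%, with 12.8% in such pairs), with a median of 10.9. RPS18/VPS52 had 17.2, and LIAS/RPL9, in which a ribosomal gene faces lipoic acid synthase, had 16.3. Among 37 aminoacyl-tRNA synthetase genes, which charge tRNAs, 10 stood at 9 members (27.0%) with a median of 9.57. Only 3 of the 37 lay in head-to-head pairs (8.11%), all 3 in pairs with a member. The gap between these shares thus reflects the different definitions of starts and pairs, and is no measure of MAX excess. FARS2/LYRM4 led at 16.1, and HARS2/HARS1, a pair for the mitochondrial and cytosolic histidyl enzymes, had 5.92. Of 56 translation initiation genes, 8 stood at 9 members (14.3%, with 14.3% in head-to-head pairs). The median was 11.3, and 2 of these members were at EIF5B/TXNDC9. EIF2S1, the alpha subunit of eIF2, shared 18.9 with ATP6V1D, and EIF3B/SNX8 had 15.6. Values ranged from 4.13 to 16.4 in the mitochondrial ribosome and from 6.98 to 18.9 in translation initiation, so the 2 lists overlapped widely.

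Mitochondrial and protein-folding genes followed. Of 108 genes of oxidative phosphorylation and its assembly, 19 stood at a member (17.6%, with 24.1% in head-to-head pairs), with a median of 9.40 and a range of 5.44 to 48.1, the upper end being NDUFAF6/CCNE2. VMAC/NDUFA11, with a complex I subunit, had 19.95, and PDCD11/ATP5MK, with a subunit of ATP synthase, had 15.7. Mitochondrial import was represented by 4 of 29 genes (13.8%, with 20.7% in head-to-head pairs). The 4 members had a median of 14.2 and were led by LNP1/TOMM70, with an outer membrane receptor, at 15.9. Of 92 chaperone genes, 18 stood at a member (19.6%, with 18.5% in head-to-head pairs), with a median of 11.8, a range of 6.44 to 18.6 and 11 of 18 peaks at 10 or more (61.1%). HSPE1/HSPD1, the mitochondrial chaperonin pair, had 18.6, TSACC/CCT3 had 18.3, and WDR20/HSP90AA1 had 17.8. The proteasome list gave 7 members at 6 of 48 genes (12.5%, with 12.5% in head-to-head pairs), 2 of them at TBP/PSMB1. The median was 8.88 and the range 6.77 to 15.6, and PSMC2/DNAJC2, an ATPase subunit beside a chaperone, had 15.6. The share of chaperone peaks at 10 or more was thus near the 54.9% of all members, and 7 peaks are too few to place the proteasome list.

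Genes of DNA replication and repair stood at 14 and 27 members. Of 50 replication genes, 14 stood at a member (28.0%, with 30% in head-to-head pairs), with a median of 10.2. AP4M1/MCM7 had 27.3, MCM4/PRKDC, with another helicase subunit and the catalytic subunit of DNA-PK, had 23.1, and UMAD1/RPA3, with the small subunit of replication protein A, had 20.3. Of 94 repair genes, 24 stood at a member (25.5%, with 23.4% in head-to-head pairs), with a median of 11.7 and 20 of 27 peaks at 10 or more (74.1%). RAD9B/VPS29 had 33.0 and MSH5/CLIC1, with a MutS homologue of meiosis, had 22.5. The cell cycle list, drawn by symbol, gave 25 of 168 genes (14.9%, with 13.7% in head-to-head pairs). It had 29 members, with a median of 10.6. It takes in genes with other main roles, such as the splicing factor gene CDC40, the translation factor assembly gene CDC123, the CDC42 effector gene CDC42SE1 and the neuronal kinase gene CDK5. ABCE1/ANAPC10, with a subunit of the anaphase-promoting complex, had 18.7. Repair genes had the highest share at 10 or more among the lists with at least 20 members. None of 71 clustered histone genes stood at a member. Of these genes, 23 lay in head-to-head pairs, and no MAX peak was listed at the 5′ ends of those 23. Other MAX peaks at the rest of the list were not counted.

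**Figure D5:**
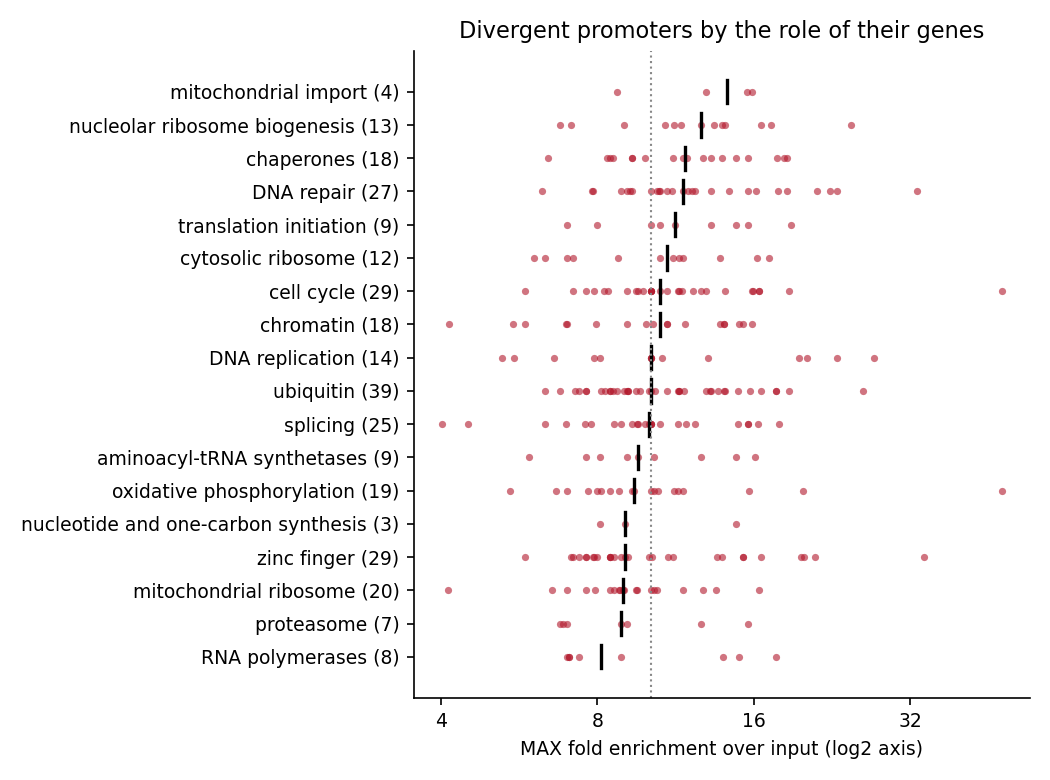
MAX fold enrichment over input (x axis) of each member by gene list (y axis), where each point is 1 member peak and a peak may stand in several lists. The black bar is the median of the list and the dotted line is the median of all 765 members (10.2). Bars to its right are those of mitochondrial import, nucleolar, chaperone, repair, translation initiation, cytosolic ribosome, cell cycle and chromatin genes. The other bars lie on it or to its left.

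RNA-related and regulatory genes made up most of the remaining lists. Nucleolar and ribosome biogenesis genes numbered 13 of 65 (20%, with 24.6% in head-to-head pairs) at 13 members, with a median of 12.7 and 10 of 13 at 10 or more. RRP1B/HSF2BP, with a nucleolar protein, had 24.6, and ILK/RRP8 had 17.3. Splicing genes numbered 22 of 105 (21.0%, with 19.0% in head-to-head pairs) at 25 members with a median of 10.05 and a range of 4.02 to 17.9, from MFSD11/SRSF2 to GEMIN6/SRSF7, and SRSF2 and SRSF7 both encode splicing regulators of the SR family. RNA polymerase subunits numbered 8 of 34 (23.5%, with 26.5% in head-to-head pairs) at 8 members with a median of 8.12, of which RNF115/POLR3C had 17.7 and POLR2B/NOA1, with the second largest subunit of RNA polymerase II, had 15.0. Zinc finger genes formed the largest list, with 612 genes. Of these, 35 (5.72%, against 7.05% of all coding genes) stood at 29 members with a median of 9.03. Fewer of them also lay in head-to-head pairs (6.70%, against 8.46% of all coding genes). Chromatin genes numbered 17 of 182 (9.34%, with 12.1% in head-to-head pairs) at 18 members. The median was 10.6, and KIF20A/BRD8 led at 15.9. This list, drawn by symbol, also takes in genes of the transcription machinery, such as the Mediator gene MED17 and the TAF genes TAF5L and TAF1D. The ubiquitin list, drawn by symbol, gave 37 of 424 genes (8.73%, with 9.43% in head-to-head pairs). Its 39 members had a median of 10.1, and USPL1/HMGB1 had the highest value at 26.0. A symbol such as USPL1 or UBL5 does not show that the gene acts in the ubiquitin pathway. Nucleotide and serine synthesis was represented by 3 of 36 genes (8.33%, with 11.1% in head-to-head pairs). The 3 members were CCT6A/PSPH at 14.8, PHGDH/ZNF697 at 9.03 and SON/GART at 8.08. None of 21 genes chosen on the basis of the study's text stood at a member, against 7.05% of all coding genes. So few genes cannot show a difference from that share. Peaks shared with BMAL1 or with CACGTG at the summit were also left out by the selection.

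In 12 members both genes belonged to the same list. Besides MRPS11/MRPL46, HSPE1/HSPD1 and HARS2/HARS1, these were 6 pairs of zinc finger genes, from ZNF10/ZNF891 at 21.1 to ZNF2/ZNF514 at 7.19, and MED17/TAF1D at 10.2, RNF34/ANAPC5 at 12.9 and UBL5/FBXL12 at 10.1. MED17 and TAF1D share the chromatin list by symbol only, as genes of the transcription machinery. The ubiquitin list was also drawn by symbol, so the genes of RNF34/ANAPC5 and UBL5/FBXL12 need not share a role. The lists cover a small part of all genes, so this count gives no share of pairs with matched roles.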

How the data were processed

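ChIP-seq of MDA-MB-231 cells comprised 1 MAX, 1 BMAL1 and 1 input library. Per the submitters' processing notes, reads were aligned to hg19 with BWA 0.6.2 and peaks called with MACS2 2.0.9. The authors deposited 1 peak list per antibody. Per the file headers, the deposited pileup is a signal in tags extended to 300 bp at the summit, fold enrichment is a ratio over a background, and significance is the −log10 of p and q values. The deposited lists kept 1 duplicate tag per position for MAX and 2 for BMAL1, and their headers give a p cutoff of 1e-05, whereas the methods give a stricter one.

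From these files, peaks were joined to the starts of protein-coding transcripts of protein-coding genes in GENCODE release 44 mapped to GRCh37, whose chromosomes are those of hg19. The plus- and minus-strand TSSs nearest the summit defined a pair. Motifs were counted within 100 bp of the summit. Shares carry Wilson 95% intervals and pileups exact Poisson intervals, for counting error only. No test was made, since there was 1 library per antibody, and members of 1 gene pair are not independent. The counting was tested on simulated data. Members, gene lists and motifs were chosen with earlier results of these data known. The text names the 6 strongest and 2 weakest members, the leading members of each list, the pairs with both genes in a list and the peaks at each limit. Printed sequences were trimmed to the part between the TSSs outside annotated coding-transcript exons. Tables were handled with pandas 2.3.3 and intervals with scipy 1.17.1 under Python 3.11.15. The genome was read with pysam 0.24.0, and plots were drawn with matplotlib 3.10.9.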

Additional observations from a re-analysis of the deposited data

How the results depend on the processing

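Of 92 recomputed values, 78 stayed within the counting error or 1.5 times the count, 14 moved and 0 reversed. The number of members ran from 471 to 844. At a −log10 p of at least 12 there were 471 members, with a median fold enrichment of 12.2, 79.0% at 10 or more, 48.6% with the summit between head-to-head TSSs (44.8% of all members otherwise) and 45.9% with a noncanonical E-box. At a −log10 p of at least 8, 59.6% reached 10. The log2 ratio over one-strand promoters was above 0 in all 13 alternatives as a point value, but the 95% interval of the members' median took it from -0.02 to 0.08 at a −log10 p of at least 12. The lower end was 0 with 1 TSS per gene, with CACGTG barred only within 50 bp, with CACGTT also barred and for pileup. These intervals leave out the error of the one-strand median. The ratio was 0.014 where the summit had to lie within 300 bp of a TSS and 0.098 for −log10 p in place of fold enrichment. With 1 TSS per gene the summit lay between the TSSs in 22.3% and the spacing of all members was 67 bp, and with TSSs within 500 bp it was 132 bp, against 156 bp. The share with a noncanonical E-box was 38.1% where CACGTT was also barred and 25.2% within 50 bp. GC content was 61.1% within 500 bp of the summit. No paired analysis was possible because each antibody had 1 library. The depth of 11545865 tags limits what a missing peak shows: a promoter without a listed MAX peak may have been below the cutoff.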

Other observations

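The 765 members lay at 713 distinct gene pairs. Of these, 662 had 1 member peak, 50 had 2 and 1 had 3. The pair with 3 was MUS81/CFL1, a nuclease of DNA repair beside cofilin, with fold enrichments of 12.75, 7.62 and 9.40. At RAD9B/VPS29 the second peak had 10.4, against 33.0 at the first. Peaks of 1 pair can lie at different start sites kilobases apart. At TBP/PSMB1, with the TATA-binding protein and a proteasome subunit, the values were 6.99 and 12.7.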
